A study of Mus musculus with 4 samples.

Results

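The sterol and fatty acid synthesis genes examined here are the enzymes that build cholesterol and long-chain fatty acids, the proteins that set how strongly these enzymes are transcribed, and the transporters that carry sterol out of the cell. They were chosen by name alone, as all non-control probes whose gene name on the array was one of 33 names. The names matched 47 of the 39429 probes and 32 of the 30199 gene names on the array. Sterol synthesis enzymes made up 18 of the genes and 26 of the probes, and fatty acid synthesis enzymes made up 6 genes and 10 probes. Regulators of the sterol response together with the sterol carrier Stard4 made up 6 genes and 9 probes, and the efflux transporters Abca1 and Abcg1 had 1 probe each. The name Msmo1 had no probe, whereas its older name Sc4mol had 1.

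Total RNA came from E14tg2a cells, a line of mouse embryonic stem (ES) cells grown in all groups on gelatin without feeder cells, in medium with fetal bovine serum and leukemia inhibitory factor (LIF). The groups were cells left untreated (0 h), cells given control siRNA by transfection and harvested at 72 h, and cells transfected with a pair of siRNAs against Rif1 (mRif1#2 and NC#1) and harvested at 48 h or at 72 h. Rif1 is a chromatin protein, and the study asked how transcription changes when it is depleted. There was 1 array per group, so the differences below come without replicates and without p-values, and the small number of arrays limits their precision. Control siRNA against untreated cells is the contrast for transfection together with the time in culture, which cannot be told apart here. No control siRNA array at 48 h was analysed here, so at that time Rif1 siRNA and a shorter culture cannot be told apart either. The general methods name Lipofectamine2000 or FuGENE HD for transfection, and which of them served these samples is not given in the sources used here.

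Cells make cholesterol from acetyl-CoA through mevalonate, farnesyl pyrophosphate, squalene and lanosterol, and they make saturated and monounsaturated fatty acids from the same precursor. Both routes are transcribed under the sterol regulatory element binding proteins (SREBPs), membrane-bound factors coded by Srebf1 and Srebf2. Scap escorts an SREBP from the endoplasmic reticulum to the Golgi, where proteases release its active part. Insig1 and Insig2 hold Scap back when sterol is plentiful, and Insig1 is itself a target of the SREBPs. When oxidized sterols build up, the nuclear receptors of the LXR family turn on the efflux transporters Abca1 and Abcg1.

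The expression level below is the processed signal of a probe divided by the 75th percentile of its array, so it can be compared between arrays for 1 probe but not between probes. The targeted gene was read first, by probe A_55_P2015964. The level of Rif1 was 5.55 in untreated cells, 5.42 after control siRNA, 2.15 at 48 h and 4.15 at 72 h of Rif1 siRNA, which was 2.53-fold lower at 48 h and 1.31-fold lower at 72 h than with control siRNA. On each array, 58.8% to 74.1% of the spots were well above background. The median SD between spots of the same bright probe on 1 array was 0.062 to 0.067 (log2), which is a technical spread within an array and not a spread between cultures. All 32 genes had a probe well above background on all 4 arrays, and 45 of the 47 probes were. Markers of ES cells were present as labeled, with 13 of 14 probes well above background on the untreated array and 14 on the others. Their summed level was 359 to 378, of which Dppa5a took the largest part, at 145 in untreated cells and 118 at 72 h of Rif1 siRNA. Single markers differed. At 72 h of Rif1 siRNA against control siRNA, 8 of 14 probes were above 0, with a median log2 difference of 0.03. Of these 14, 1 was over 1.5-fold higher (Pou5f1, 0.59) and 1 over 1.5-fold lower (a dim Nanog probe, -0.69), where 4.45% and 2.54% of all probes were. Markers of the 2-cell-like state, which a small part of ES cells enters at any time, had a summed level of 10.2, 20.5, 306 and 352 on the arrays in the order untreated, control siRNA, Rif1 siRNA 48 h and Rif1 siRNA 72 h. In a bulk sample, fewer cells of a type and less RNA per cell cannot be told apart.

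The sequences upstream of the start sites are shown first for 4 members on which the results below turn. Insig1 and Hsd17b7 were the members past 1.5-fold in control siRNA against untreated or in Rif1 siRNA against control siRNA with probes well above background on all arrays, Msmo1 (read by the Sc4mol probe) is a sterol enzyme with lower levels on all transfected arrays, and Hmgcs1 was the member with the full sterol regulatory element. They are the 250 bases before the start, from RefSeq on GRCm38.p6, written along the strand of the gene. Capitals mark the letters searched on both strands: TCACNCCAC (a consensus of the sterol regulatory element), its shorter form CACNCCAC, which is contained in it, and CCAAT, the box bound by the factor NF-Y, which appears as ATTGG on the opposite strand.
Insig1 (chr5:28071162-28071411, plus strand): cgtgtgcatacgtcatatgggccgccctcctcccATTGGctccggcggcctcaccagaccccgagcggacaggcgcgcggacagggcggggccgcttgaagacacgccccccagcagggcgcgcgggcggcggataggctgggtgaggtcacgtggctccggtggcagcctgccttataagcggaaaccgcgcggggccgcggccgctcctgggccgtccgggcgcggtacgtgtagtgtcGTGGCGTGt
Hsd17b7 (chr1:169969206-169969455, minus strand): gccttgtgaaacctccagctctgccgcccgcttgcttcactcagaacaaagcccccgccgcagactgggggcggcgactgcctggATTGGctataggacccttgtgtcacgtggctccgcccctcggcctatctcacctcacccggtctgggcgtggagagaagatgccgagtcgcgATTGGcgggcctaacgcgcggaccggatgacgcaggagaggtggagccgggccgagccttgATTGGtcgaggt
Msmo1 (chr8:64733579-64733828, minus strand): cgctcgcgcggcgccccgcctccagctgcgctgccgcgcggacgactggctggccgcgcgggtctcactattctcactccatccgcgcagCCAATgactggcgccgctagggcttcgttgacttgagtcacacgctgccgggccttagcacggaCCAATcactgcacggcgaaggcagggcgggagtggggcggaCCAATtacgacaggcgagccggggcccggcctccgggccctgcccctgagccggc
Hmgcs1 (chr13:119690101-119690350, plus strand): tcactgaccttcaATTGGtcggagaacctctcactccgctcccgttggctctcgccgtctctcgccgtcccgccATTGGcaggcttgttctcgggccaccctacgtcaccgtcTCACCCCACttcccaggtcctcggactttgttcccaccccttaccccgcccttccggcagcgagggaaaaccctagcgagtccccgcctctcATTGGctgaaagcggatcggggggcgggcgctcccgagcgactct

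In Hmgcs1 the consensus element lay on the plus strand, and its shorter form began 136 bases before the start, flanked by 3 CCAAT boxes. Insig1 held the shorter form on the minus strand, its leftmost base 9 bases before the start, and 1 CCAAT box. Hsd17b7 and Msmo1 held 3 CCAAT boxes each and no match to either form of the element. Of the 32 genes, 25 had an entry in the table, with 33 start sites. Entries for Abcg1, Fdft1, Fdps, Scd1, Scd2, Sqle and Stard4 were missing. CCAAT was found upstream of 14 of the 18 start sites of sterol synthesis enzymes (77.8%), against 33.8% of the 32851 start sites of all genes. GGGCGG, the box bound by Sp1, was found upstream of 15 of these 18 (83.3%), against 32.7% of all. For the fatty acid synthesis enzymes, 1 of 4 start sites had CCAAT and 1 of 4 had GGGCGG. For the regulators, 5 of 10 had CCAAT and 7 of 10 had GGGCGG. Of all 33 member start sites, 20 had CCAAT (60.6%) and 24 had GGGCGG (72.7%). The consensus element was found upstream of 1 of the 33 member start sites, against 1.05% of all, and the shorter form upstream of 3 of 33, against 5.29% of all. Acat2 was the third gene with the shorter form. These matches describe letters in the windows and do not show binding.

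**Figure D1:**
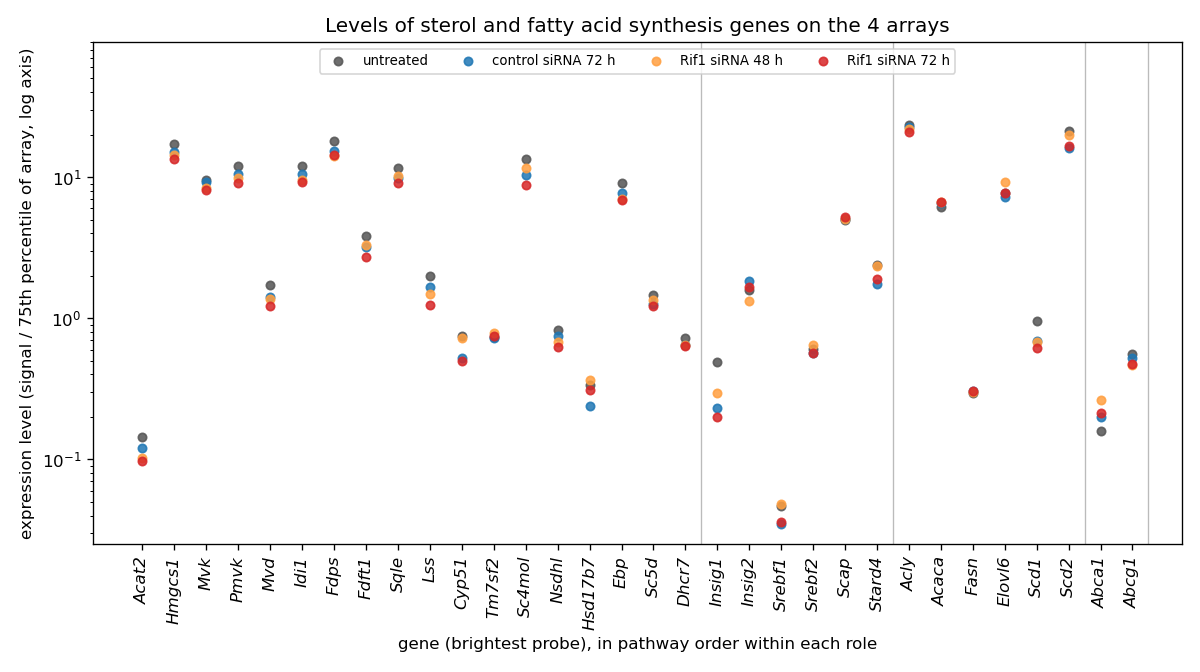
Expression level (signal over the 75th percentile of the array, log axis) of each member gene on the 4 arrays, with 1 point per array and the brightest probe of each gene, in pathway order within the sterol enzymes, the regulators with Stard4, the fatty acid enzymes and the efflux transporters, which vertical lines divide. Points are to be compared within a gene: for most sterol enzymes the untreated point is the top one and the Rif1 siRNA 72 h point the bottom one.

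Sterol synthesis enzymes were slightly but broadly lower with control siRNA at 72 h than in untreated cells. The difference was below 0 for 23 of 24 probes of these enzymes, with a median log2 difference of -0.20, which is 1.15-fold lower. Over all 22548 probes compared, 52.4% were below 0 and the median was -0.01. The exception was a Tm7sf2 probe at 0.00. The lower values were found among dim and bright probes. Among probes with a mean level of 0.1 to 1 on the arrays, the median was -0.15 for 10 sterol enzyme probes and 0.00 for all probes. Among those at 1 to 5, it was -0.22 for 6 sterol enzyme probes and 0.00 for all probes. Among those over 5, it was -0.21 for 8 sterol enzyme probes and -0.01 for all probes, and all 14 of these bright sterol enzyme probes were below 0.

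Few members passed a fold threshold in this contrast. Of 45 member probes compared, 0 were over 1.5-fold higher and 2 were over 1.5-fold lower, where 1.34% and 1.92% of all probes were. At 2-fold the counts were 0 higher and 1 lower, against 0.377% and 0.616% of all probes. The probes past 1.5-fold belonged to Hsd17b7, an enzyme, and to Insig1, a regulator. Under normexp background correction the Hsd17b7 probe was at -0.54, short of 1.5-fold.

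Hsd17b7 codes for the ketosteroid reductase that acts while the methyl groups at carbon C4 of the sterol ring are removed. Probe A_52_P566605 (mm9 chromosome 1, 171880203 to 171880262) gave a level of 0.336 in untreated cells, 0.215 after control siRNA, 0.333 at 48 h and 0.245 at 72 h of Rif1 siRNA. Its level was thus near that of untreated cells at 48 h and lowest with control siRNA. The log2 difference between control siRNA and untreated was -0.65. Probe A_55_P1997936 (171883182 to 171883241) gave 0.334, 0.238, 0.364 and 0.311 in the same order, with a log2 difference of -0.49. The third Hsd17b7 probe, A_55_P1964598 (171885632 to 171885691), was designed to another transcript and gave 0.277, 0.267, 0.308 and 0.305. The probes of this gene therefore disagreed on the size of the difference, which ranged from -0.65 to -0.05 and was the widest range among the 10 genes with several probes well above background on all 4 arrays. The median range in these genes was 0.06.

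After Hsd17b7, the lowest values among the sterol enzymes were those of Cyp51 and Sc4mol. Cyp51, the demethylase of lanosterol, had a level of 0.750 in untreated cells, 0.523 after control siRNA, 0.724 at 48 h and 0.495 at 72 h of Rif1 siRNA. Both 72 h arrays were low and the other arrays were high. Its log2 difference between control siRNA and untreated was -0.52. Sc4mol, the oxidase of the sterol C4 methyl groups, had levels of 13.4, 10.4, 11.6 and 8.72 in the same order, and a log2 difference of -0.36. Its untreated level was the highest and its level at 72 h of Rif1 siRNA the lowest.

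The rest of the route showed the same direction with smaller values. In the mevalonate part, the log2 difference between control siRNA and untreated was lowest for Mvd, the decarboxylase that makes isopentenyl pyrophosphate, at -0.28. Acat2, which starts the route by joining acetyl-CoA, was at -0.26, and Mvk, the mevalonate kinase, was nearest to 0 with -0.07 and -0.04 on its 2 probes. Pmvk, Idi1, Fdps and the bright probe of Hmgcs1 lay between -0.22 and -0.13. In the squalene part, Fdft1, Sqle and Lss, which make squalene, oxidize it and close the rings to lanosterol, were at -0.25, -0.24 and -0.25. In the late part, Ebp, Sc5d, Dhcr7 and the 2 Nsdhl probes lay between -0.24 and -0.14. Tm7sf2, a sterol reductase, was near 0 on both probes, with -0.02 and 0.00.

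**Figure D2:**
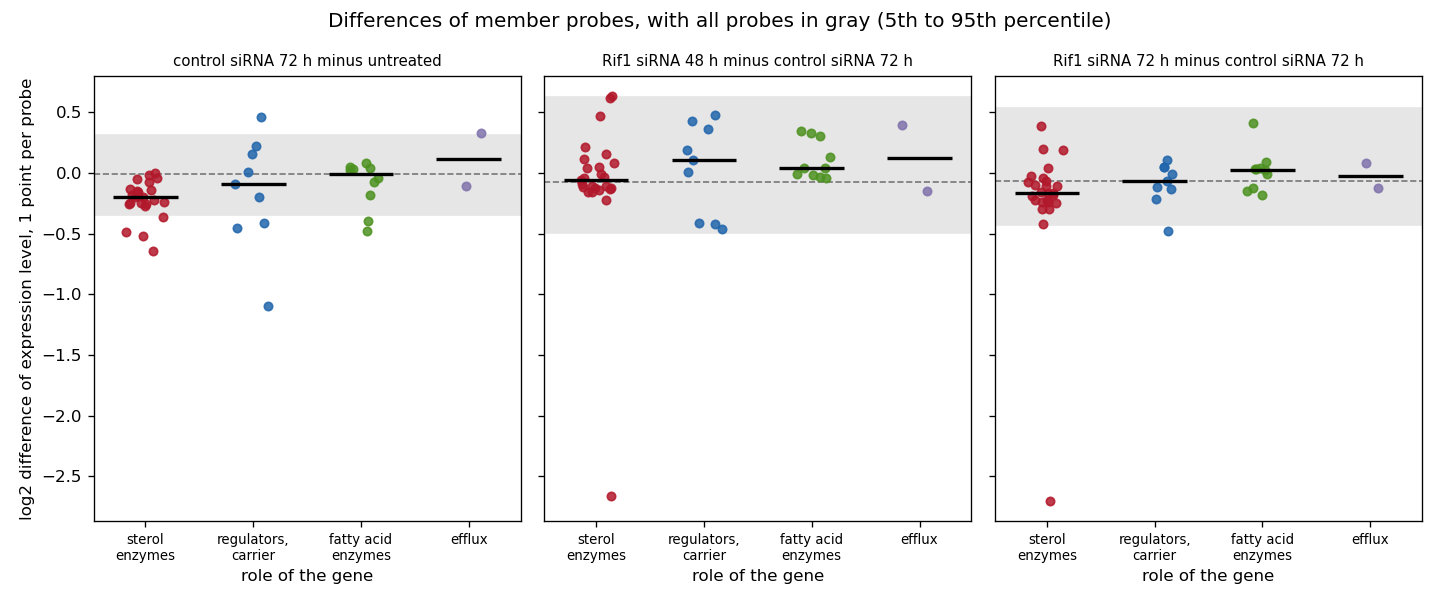
Log2 difference of the expression level in the 3 comparisons, with 1 point per member probe, a black bar at the median of each role, a gray band from the 5th to the 95th percentile of all probes and a dashed line at their median. The sterol enzymes lie below the dashed line in the first panel (23 of 24 probes), whereas Insig1 is the point at -1.09 and the Hmgcs1 probe at -2.66 and -2.70 is the low point of the other panels.

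Against control siRNA, the sterol synthesis enzymes had a median close to that of all probes at 48 h of Rif1 siRNA. Their median log2 difference was -0.06, with 16 of 25 probes below 0, and the median of all 24266 probes was -0.07 with 61.3% below 0. Among probes with a mean level over 5, the median was -0.10 for 8 sterol enzyme probes and -0.14 for all probes, and 1 of the 8 lay below the median of all. It was -0.07 for 6 sterol enzyme probes and -0.08 for all probes at 1 to 5, and 0.05 for 10 sterol enzyme probes and -0.03 for all probes at 0.1 to 1. Of 46 member probes compared, 2 were over 1.5-fold higher and 1 was over 1.5-fold lower, where 5.55% and 3.43% of all probes were. At 2-fold the counts were 0 and 1, against 2.35% and 1.01% of all probes. The higher ones were the Hsd17b7 probes A_52_P566605 and A_55_P1997936, at 0.63 and 0.61. Under quantile normalization these were at 0.56 and 0.55, and under normexp background correction they were at 0.49 and 0.49, short of 1.5-fold. Cyp51 was at 0.47 and Sc4mol at 0.16, whereas Acat2 was at -0.23 and Lss at -0.16.

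At 72 h of Rif1 siRNA, the sterol synthesis enzymes were lower than with control siRNA at the same time. The median log2 difference was -0.16, with 21 of 25 probes below 0. Over all 24312 probes the median was -0.07, with 63.1% below 0, and 18 of the 25 sterol enzyme probes lay below that median. Bright probes were lower on the Rif1 siRNA arrays in general. Among probes with a mean level over 5, the median was -0.13 for all probes and -0.18 for 8 sterol enzyme probes, 6 of which lay below the median of all. Among probes at 1 to 5, it was -0.08 for all probes and -0.23 for 6 sterol enzyme probes. Among those at 0.1 to 1 no such shift was seen, with -0.04 for all probes and -0.03 for 10 sterol enzyme probes, 5 of which lay below the median of all. Of 46 member probes, 0 were over 1.5-fold higher and 1 was over 1.5-fold lower, where 4.45% and 2.54% of all probes were, and at 2-fold the counts were 0 and 1, against 2.12% and 0.983%. The probe past 1.5-fold was a dim one of Hmgcs1. The next lowest value among the sterol enzymes was that of Lss, the lanosterol synthase, at -0.42. Its levels were 1.98, 1.67, 1.49 and 1.25 on the arrays in the order untreated, control siRNA, Rif1 siRNA 48 h and Rif1 siRNA 72 h. The level of Lss was thus lower on each array in that order.

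The lower call in both Rif1 siRNA comparisons came from 1 spot. Hmgcs1 codes for the synthase that makes hydroxymethylglutaryl-CoA, and its probe A_55_P1954569 gave a level of 0.010 in untreated cells, 0.089 after control siRNA, 0.014 at 48 h and 0.014 at 72 h. The control siRNA array alone was high, and the spot was not well above background on the untreated array, against which control siRNA was at least 3.78-fold higher. The log2 differences were -2.66 at 48 h and -2.70 at 72 h. The other Hmgcs1 probe, A_55_P2032966, had levels of 17.3, 15.1, 14.5 and 13.5 and log2 differences of -0.06 and -0.16 in these comparisons, so the probes of this gene did not share the change. Each of the 47 member probes had 1 spot per array. A probe of Fdft1, A_52_P136138, stayed dim on all 4 arrays and was not compared.

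The 3 comparisons share the control siRNA array, so the direct order of the 4 arrays is given too. Of the 24 sterol enzyme probes well above background on all arrays, 20 were highest in untreated cells and 18 were lowest at 72 h of Rif1 siRNA. Of all 22518 such probes, 34.6% were highest in untreated cells and 31.7% were lowest at 72 h of Rif1 siRNA. None of the 24 was lowest in untreated cells, and 0 were highest at 72 h of Rif1 siRNA. Directly against untreated cells, the median log2 difference of the sterol enzymes at 72 h of Rif1 siRNA was -0.37 (1.29-fold lower). Of their 24 probes, 22 were below 0. The median of all 22722 probes was -0.08, with 64.97% below 0. Among probes with a mean level over 5, the median was -0.37 for 8 sterol enzyme probes and -0.13 for all probes. All 8 lay below the median of all, and 83.4% of all probes at this level were below 0. It was -0.46 for 6 sterol enzyme probes and -0.07 for all probes at 1 to 5. At 0.1 to 1 it was -0.19 for 10 sterol enzyme probes and -0.05 for all probes. In this comparison, added after the data had been seen, 5 of 45 member probes were over 1.5-fold lower and 0 over 1.5-fold higher, where 3.81% and 4.18% of all probes were. They were Lss (-0.67), Sc4mol (-0.62), Cyp51 (-0.60), Scd1 (-0.63) and Insig1 (-1.31). At 48 h of Rif1 siRNA against untreated cells, the median of the sterol enzymes was -0.21, with 21 of 24 probes below 0. That of all probes was -0.08 there, with 64.4% below 0. In that comparison, 1 of 45 member probes was over 1.5-fold lower (Insig1, -0.73) and 1 over 1.5-fold higher (Abca1, 0.72). The 5th and 95th percentiles of all probes were -0.49 and 0.56 there, and their share past 1.5-fold was not counted. Between the Rif1 siRNA arrays, 23 of 25 sterol enzyme probes were lower at 72 h than at 48 h, with a median of -0.10, against 51.2% of all probes and a median of -0.01.

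**Figure D3:**
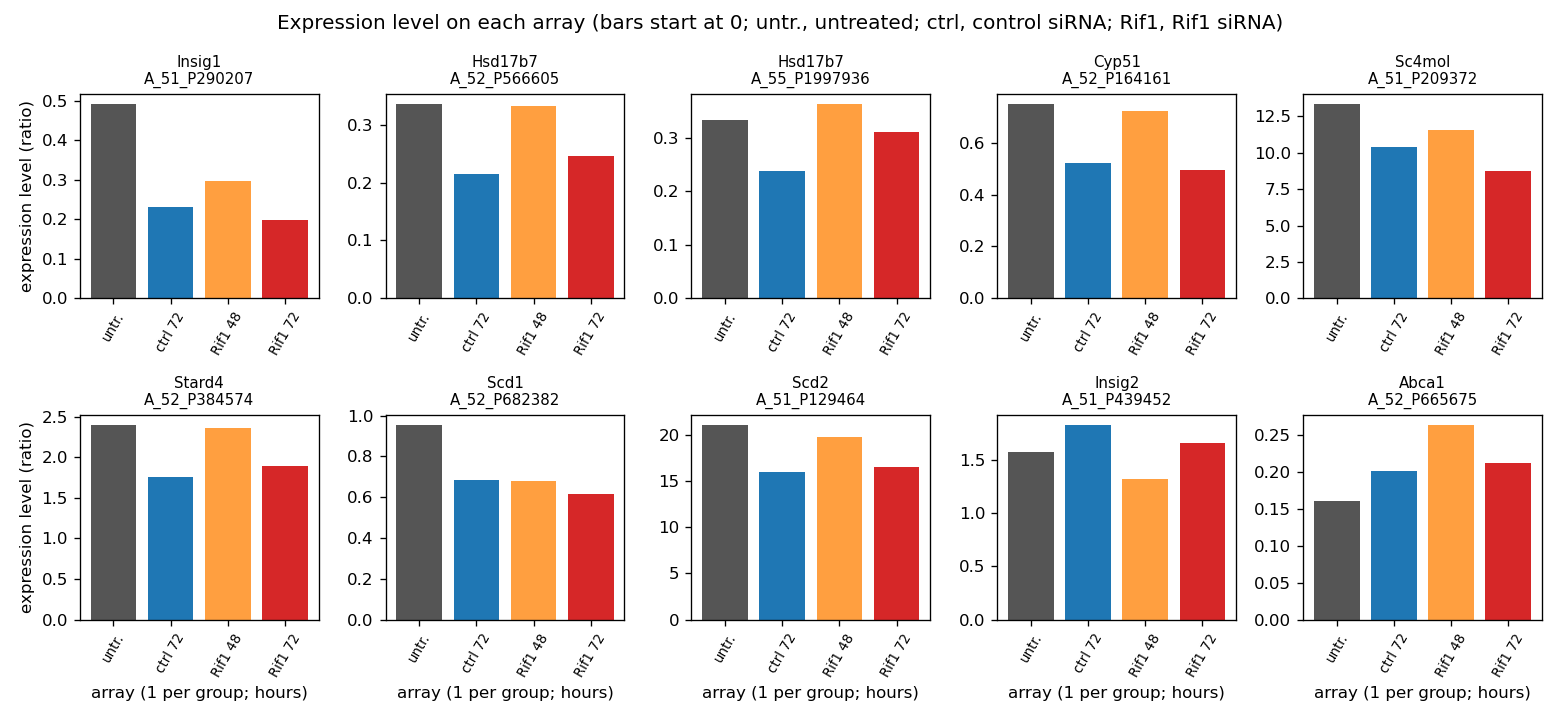
Expression level (ratio to the 75th percentile of the array, axis from 0) of 10 member probes on the untreated, control siRNA 72 h, Rif1 siRNA 48 h and Rif1 siRNA 72 h arrays, with 1 bar per array and no error bar since each group had 1 array. Insig1 is at 0.492 in untreated cells and at 0.199 to 0.296 on the other arrays, and Hsd17b7, Cyp51, Stard4 and Scd2 are higher at 48 h of Rif1 siRNA than on either 72 h array.

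Among the regulators, Insig1 had the largest difference in control siRNA against untreated cells among the 45 member probes well above background on both arrays. Insig1 codes for the endoplasmic reticulum protein that retains Scap, and its probe A_51_P290207 (mm9 chromosome 5, 28404246 to 28404305) gave a level of 0.492 in untreated cells, 0.231 after control siRNA, 0.296 at 48 h and 0.199 at 72 h of Rif1 siRNA. The untreated array was the highest by far, and no transfected array came near it. The log2 difference between control siRNA and untreated was -1.09, or 2.13-fold lower, and it ranged from -1.10 to -0.97 under other scalings. Against control siRNA, Insig1 was at 0.36 at 48 h and -0.21 at 72 h.

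Insig2, the second protein that retains Scap, had another order of arrays. Its probe A_51_P439452 gave 1.57 in untreated cells, 1.83 after control siRNA, 1.33 at 48 h and 1.67 at 72 h of Rif1 siRNA, so control siRNA was highest and 48 h of Rif1 siRNA lowest. Its log2 differences were 0.22 for control siRNA against untreated, -0.47 at 48 h and -0.14 at 72 h of Rif1 siRNA. The other Insig2 probe gave 0.16, -0.42 and -0.11 in the same comparisons, and the 2 probes differed by 0.06, 0.04 and 0.02.

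Stard4, a carrier that moves cholesterol between membranes and is itself an SREBP target, resembled Cyp51. Its brighter probe, A_52_P384574, gave 2.40 in untreated cells, 1.76 after control siRNA, 2.36 at 48 h and 1.89 at 72 h of Rif1 siRNA. Both 72 h arrays were low. The log2 differences were -0.45, 0.43 and 0.10 in the 3 comparisons. The dimmer Stard4 probe gave -0.20, 0.11 and -0.06, so its value at 72 h had the other sign.

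The SREBP genes and Scap showed no common shift. Scap, the escort of the SREBPs, was flat, with log2 differences of 0.01, 0.01 and 0.05. Srebf1 was dim, with levels of 0.046, 0.035, 0.049 and 0.036, and log2 differences of -0.41, 0.48 and 0.05. The 2 probes of Srebf2 disagreed in sign, with -0.09 and 0.46 for control siRNA against untreated, and 0.19 and -0.41 at 48 h of Rif1 siRNA against control siRNA, so no direction can be given for this gene there. At 72 h of Rif1 siRNA against control siRNA, the probes were at -0.01 and -0.48, the latter the lowest member value after the dim Hmgcs1 probe. Over the 9 probes of regulators and carrier, the median log2 difference was -0.09 for control siRNA against untreated, 0.11 at 48 h and -0.06 at 72 h of Rif1 siRNA, beside -0.01, -0.07 and -0.07 for all probes. With 1 probe per gene these medians of the regulators and carrier were -0.25, 0.27 and 0.02, so the sign at 72 h turned. That at 48 h was 0.04 under normexp and 0.06 under quantile normalization, and those at 72 h were -0.11 and -0.12.

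Fatty acid synthesis enzymes were, as a group, close to 0 in all 3 comparisons. Their median log2 difference over 10 probes was -0.01 for control siRNA against untreated, with 5 probes below 0. It was 0.04 at 48 h and 0.03 at 72 h of Rif1 siRNA against control siRNA, with 4 probes below 0 at each time, and 0 of the 10 passed 1.5-fold in any of the 3 comparisons, where between 1.34% and 5.55% of all probes did so in a given direction. The medians of all probes were -0.01, -0.07 and -0.07 in these comparisons. Among probes with a mean level over 5, 5 fatty acid enzyme probes had a median of 0.04 at 48 h and 0.03 at 72 h, against -0.14 and -0.13 for all probes, and 0 of the 5 lay below the median of all at either time. Among those at 0.1 to 1, 3 fatty acid enzyme probes had medians of -0.01 and -0.15, against -0.03 and -0.04 for all probes. All 3 were below 0 at both times. Among those under 0.1, 2 fatty acid enzyme probes had medians of 0.23 and 0.22, against -0.02 and -0.01. The fatty acid synthase gene Fasn had levels of 0.294, 0.305, 0.298 and 0.303 in the order untreated, control siRNA, Rif1 siRNA 48 h and Rif1 siRNA 72 h. All 4 arrays were nearly equal. The first steps, Acly, which splits citrate to acetyl-CoA, and the bright probes of Acaca, which makes malonyl-CoA, lay between -0.04 and 0.08 in control siRNA against untreated. One bright Acaca probe, A_55_P2084706, has an mm9 position on chromosome 12 and not beside the others on chromosome 11, and it gave 0.04, 0.04 and 0.02, close to the 0.08, 0.04 and 0.03 of probe A_55_P2019058. The other 2 Acaca probes were dimmer, though well above background on all arrays, and differed from these. Probe A_55_P2084703, with levels of 0.035, 0.036, 0.045 and 0.048, gave 0.03, 0.33 and 0.41, and probe A_55_P2121392, with levels of 0.060, 0.053, 0.058 and 0.054, gave -0.18, 0.14 and 0.03.

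The stearoyl-CoA desaturases, which make monounsaturated fatty acids, were the exception in control siRNA against untreated. Scd1 had levels of 0.954, 0.685, 0.678 and 0.617 in the same order of arrays. The untreated array was high and the transfected arrays were close to each other. Its log2 difference was -0.48. Scd2 had levels of 21.1, 16.0, 19.8 and 16.5, with a log2 difference of -0.40 and of 0.30 at 48 h of Rif1 siRNA against control siRNA. Scd2 thus had both 72 h arrays low, as Cyp51 and Stard4 did. Elovl6, which extends palmitate, had levels of 7.66, 7.27, 9.24 and 7.73, so only the 48 h array was higher, with 0.35 against control siRNA.

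The efflux transporters did not move together. Abca1, which loads cholesterol onto apolipoproteins, had a level of 0.160 in untreated cells, 0.201 after control siRNA, 0.263 at 48 h and 0.212 at 72 h of Rif1 siRNA. The untreated array was lowest, the reverse of the sterol enzymes. Its log2 differences were 0.33, 0.39 and 0.08 in the 3 comparisons, none of them past 1.5-fold. Abcg1, which exports sterol to lipoprotein particles, had levels of 0.559, 0.519, 0.469 and 0.476 and log2 differences of -0.11, -0.15 and -0.12.

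**Figure D4:**
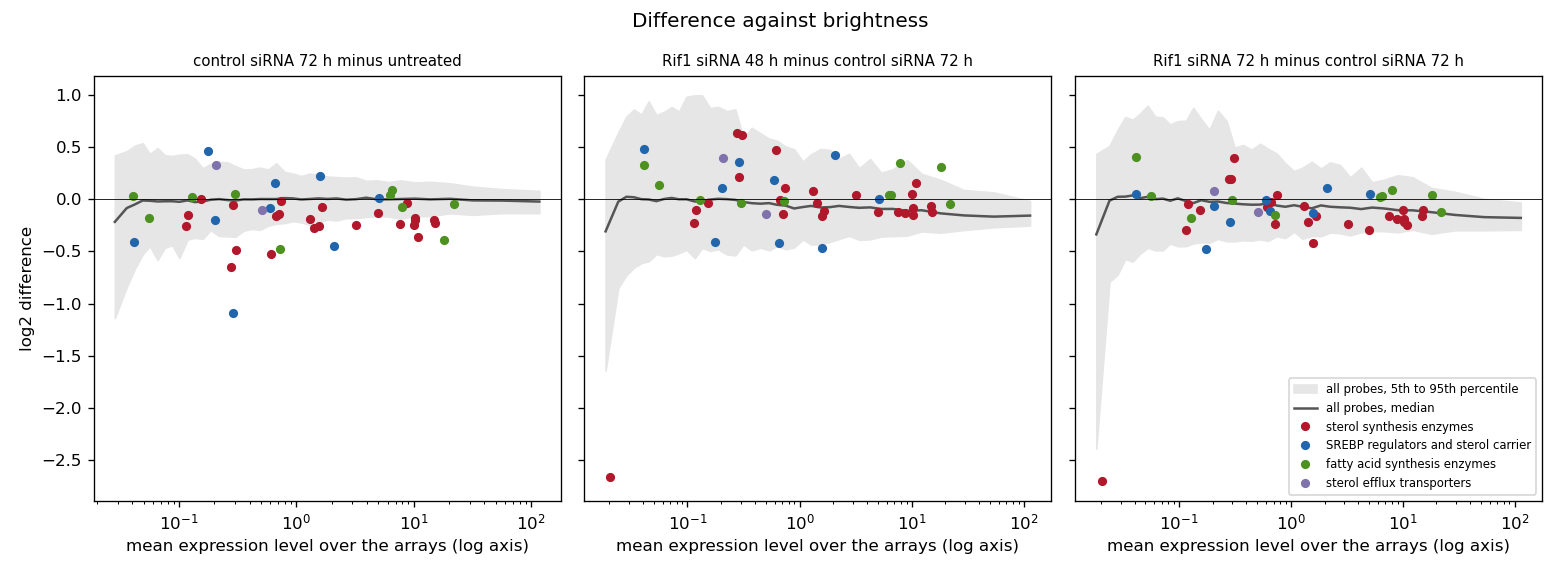
Log2 difference of each member probe against its mean expression level over the 4 arrays (log axis) in the 3 comparisons, with the running median of all probes as a line and their 5th to 95th percentile as a band. The line starts at -0.22, -0.31 and -0.34 for the dimmest probes. Over a level of 1 it stays near 0 in the first panel and lies below 0 in the panels of Rif1 siRNA, where all probes with a mean level over 5 have medians of -0.14 at 48 h and -0.13 at 72 h.

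Other genes of the pathway were listed apart from the members. Of 47 probes compared for 32 genes, 0 were higher and 1 was lower in control siRNA against untreated. Against control siRNA, 0 were higher and 0 lower at 48 h of Rif1 siRNA, and 1 was higher and 0 lower at 72 h. The shares of all probes past 1.5-fold are those given above, 1.34% and 1.92%, 5.55% and 3.43%, and 4.45% and 2.54%, higher and lower in turn. The lower one was the Nr1h3 probe A_55_P2128597, for an LXR receptor, with levels of 0.158, 0.047, 0.061 and 0.062 and a log2 difference of -1.76. The other Nr1h3 probe was at -0.08, so the probes of this gene disagreed. The higher one was Dgat2, which makes triglyceride, with levels of 2.63, 2.74, 3.61 and 4.15 and a log2 difference of 0.60 at 72 h. In the order control siRNA against untreated, Rif1 siRNA 48 h against control siRNA and Rif1 siRNA 72 h against control siRNA, the median log2 difference of the 9 probes for SREBP processing and turnover, such as the proteases Mbtps1 and Mbtps2, was -0.07, -0.05 and -0.04. For the 12 probes of sterol supply and handling it was 0.06, -0.02 and -0.08. For the 6 probes of LXR receptors and their targets it was -0.07, 0.12 and 0.13. For the 20 other probes of fatty acid and lipid synthesis it was -0.02, -0.05 and -0.16, and 17 of these 20 were below 0 at 72 h of Rif1 siRNA. Of all probes, 63.1% were below 0 in that comparison, with a median of -0.07. The 6 LXR probes ranged there from -0.42 (Apoe) to 0.57 (Mylip). Directly against untreated cells at 72 h of Rif1 siRNA, 2 of the 47 probes were over 1.5-fold higher, Mylip (1.02) and Dgat2 (0.66). In that comparison 1 was over 1.5-fold lower, the same Nr1h3 probe (-1.34), where 4.18% and 3.81% of all probes were higher and lower.

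Markers of other cells moved between control siRNA and untreated cells too. For primitive endoderm, the extraembryonic lineage that ES cells can form, 10 of 10 compared probes were below 0 in control siRNA against untreated, with a median log2 difference of -0.57, and 5 were over 1.5-fold lower. Of all probes, 52.4% were below 0 and 1.92% were over 1.5-fold lower in this comparison. The summed level of the 12 probes was 23.8 in untreated cells, 18.4 after control siRNA, 22.6 at 48 h and 18.7 at 72 h of Rif1 siRNA, the order seen for Scd2 and Stard4. Lama1, a laminin gene, took most of this sum, with 20.7, 16.3, 20.0 and 16.8. Against control siRNA, the median log2 difference over the 10 compared probes was 0.33 at 48 h, with 3 below 0, and -0.18 at 72 h, with 9 below 0, beside -0.06 and -0.16 for the sterol enzymes. Of all probes, 61.3% and 63.1% were below 0. Afp went the other way at 72 h, since it was not well above background on the untreated and control siRNA arrays, with levels of 0.013 and 0.0082, and was so on both Rif1 siRNA arrays, at 0.053 and 0.043, a log2 difference of at least 1.75 at 48 h and 1.43 at 72 h against control siRNA. Directly against untreated cells, 10 of 10 compared primitive endoderm probes were below 0 at 72 h of Rif1 siRNA, with a median of -0.79. That of the sterol enzymes was -0.37 there. Of these 10 marker probes, 7 were over 1.5-fold lower, where 3.81% of all probes were. The part of primitive endoderm cells in the levels of the sterol genes was not tested. Markers of trophoblast had summed levels of 17.9 to 22.4. Against control siRNA, 7 of 7 compared probes were above 0 at both times, with medians of 0.50 and 0.33, where 38.7% and 36.9% of all probes were above 0. Markers of fibroblasts had summed levels of 3.79 to 4.44, most of it Thy1. At 72 h of Rif1 siRNA against control siRNA, 3 of 4 compared probes were over 1.5-fold higher, where 4.45% of all probes were. They were Col1a1, Col1a2 and Dcn, with log2 differences of 0.82, 0.82 and 0.65. Lum and Postn were dim on all arrays. Markers of mesoderm and neural cells had summed levels of 3.37 to 4.04. Their medians were -0.30, 0.36 and -0.05 in the 3 comparisons, beside -0.01, -0.07 and -0.07 for all probes. Of 7 compared probes, 5, 3 and 4 were below 0, so they had no common direction. At 48 h of Rif1 siRNA the 2 Kdr probes were at 0.95 and -0.22. The part of these cells too was not tested.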

How the data were processed

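Cy3-labeled cRNA of 4 samples was hybridized to 4 one-color Agilent arrays. The groups, with 1 array each, were taken from the sample labels. The authors deposited the spot intensity of Feature Extraction 11.5.1.1 (background subtracted and detrended within the array), with flags and mm9 positions. A second deposited table holds the same values, each as a linear ratio to that array's 75th percentile. No other genome build is named for the arrays in the sources used here.

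The value used was log2 of the processed signal minus log2 of its 75th percentile over the 43020 spots that are not controls. Outlier spots (120 to 152 per array) were left out, 0 spots were saturated, and spots of a probe were averaged. A probe was compared where it was well above background on both arrays. The lowest level well above background (0.0236 on the untreated array) gave the bound for a dim probe. Differences over 1.5-fold were counted, with 2-fold beside them, and set against the share over all probes. With 1 array per group no test was made. The tools were Python 3.11.15, numpy 2.4.6, pandas 2.3.3, R 4.3.3 and limma 3.58.1. The 1.5-fold call was checked on simulated data with planted 2-fold differences and noise near the spread within an array. This check does not cover the spread between cultures. The medians by role, the ranges of brightness and the motif search were not part of it.

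Of the 47 member probes, 44 had an accession in the RefSeq table, 1 of them with another symbol (Sc4mol, now Msmo1). The members and lists were chosen with earlier results of these data known. By rule, all 4 levels were given for members well above background on all arrays and past 1.5-fold in 1 of the 3 comparisons, for 1 or 2 others per role, and for other pathway genes past 1.5-fold. The values of the remaining members named, the ranges of brightness and the shorter motif were added after the data had been seen. So were the comparisons of Rif1 siRNA at 48 h and 72 h with untreated cells.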

Additional observations from a re-analysis of the deposited data

How the results depend on the processing

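The 6 counts of member probes past 1.5-fold and the 12 medians by role were recomputed under 8 alternatives: normexp background correction (offset 50), quantiles made equal between arrays, centring on the median, the deposited ratios, outlier spots kept, probes well above background on at least 1 of both arrays with a bound for the dim side, probes well above background on all 4 arrays, and 1 probe per gene. The limit set for a shift of a median was 0.256 (log2), the SD over all probes of control siRNA against untreated. This limit is not a replicate SD and is larger than each of the 12 medians, so that 0 of them passed it says nothing about their stability. The median of the sterol synthesis enzymes lay between -0.23 and -0.19 for control siRNA against untreated, between -0.07 and -0.03 at 48 h of Rif1 siRNA and between -0.18 and -0.13 at 72 h. In the same order, that of the regulators and carrier lay between -0.25 and -0.08, between 0.04 (normexp) and 0.27 (1 probe per gene), and between -0.12 and 0.02, that of the fatty acid enzymes between -0.058 and -0.0011, between 0.0038 and 0.062, and between -0.014 and 0.026, and that of the efflux transporters between 0.09 and 0.11, between 0.07 and 0.12, and between -0.07 and -0.02. The sign of 2 of these medians at 72 h, those of the regulators and of the fatty acid enzymes, thus turned, under 1 alternative each. Counts moved as follows. In control siRNA against untreated, the lower count was 1 with normexp and 1 with 1 probe per gene, and the higher count was 1 with bounds, from the dim Hmgcs1 probe. At 48 h of Rif1 siRNA, the higher count was 0 with normexp, 0 with equal quantiles and 1 with 1 probe per gene. The lower count was 0 at both times with probes well above background on all 4 arrays and with 1 probe per gene, since the dim Hmgcs1 probe was then left out. Normexp shifted the median of all probes to -0.10 at 48 h and -0.11 at 72 h of Rif1 siRNA, and under it 10 and 16 of the 25 sterol enzyme probes lay below that median. The number of arrays limits the precision, and 2 of the 47 probes were not well above background throughout.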
